A study of Caenorhabditis elegans with 18 samples.

Results

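The comparison described here is between worms kept on auxin for 2 h and worms kept on auxin for 1 h, so it follows what happened during the second hour of depletion of the splicing factor MOG-7 in the germline of Caenorhabditis elegans. It uses 12 of the 18 libraries of the study, 6 at each time, chosen by their treatment labels. The labels put them in 6 batches (I, II, V, VII, VIII, X) with 1 library at each time, and the pairs were formed by batch. The other 6 libraries came from worms on ethanol for 2 h. They entered no test of the second hour and served only to give the direction of the first hour and a control level.

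All worms carried mog-7::degron::gfp, in which MOG-7 is fused to an auxin-dependent degron and GFP, and sun-1p::TIR1::mRuby, in which the sun-1 promoter drives the plant F-box protein TIR1 in germ cells. They were synchronized young adult hermaphrodites that had not yet made embryos, grown at 20 °C on OP50 bacteria. RNA of whole worms was selected for poly-A tails, so somatic tissue and germline were read together. Controls without the degron or without TIR1 were not analysed here. No 1 h ethanol group was analysed, so time on auxin and time on the plates cannot be told apart in any value below.

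Introns are cut out of pre-mRNA by the spliceosome, and MOG-7 belongs to a set of germline-active splicing factors first known for their part in the switch from sperm to oocytes. When splicing is slowed, intron sequence stays in transcripts, and transcripts with retained introns are often held in the nucleus or degraded. In auxin-inducible degradation, auxin joins TIR1 to the degron, which marks the tagged protein for the proteasome. The adult germline holds stem cells, meiotic cells and growing oocytes, and makes much of the RNA of an adult hermaphrodite.

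Reads on protein-coding genes numbered 18939877 to 30747645 per auxin library, and reads on intron intervals 567787 to 885408. Within batches the 2 h library held 0.616 to 1.15 times as many gene reads as the 1 h library. Levels are given as CPM, which are counts scaled to the size of the library. The mRNA of the targeted gene mog-7 ran from 34.8 to 43.1 CPM (median 39.3) at 1 h and from 38.5 to 45.6 CPM (median 42.8) at 2 h, which did not pass the test (log2 change 0.10, SE 0.04, edgeR adjusted p = 0.0560, higher in 6 of 6 batches). The degron acts on the protein, which was not measured, so this value is no check of the depletion. Of the 9 introns of mog-7, 3 had enough reads to be tested. Relative to gene reads, introns 6, 7 and 8 rose, by 0.46, 0.80 and 0.93 on the log2 scale. Their values under other scalings of the intron counts are not given here. Intron 8 had too few reads to be tested in the first hour. Introns 7 and 8 rose in 6 of 6 batches. Intron 6 rose in 5 of 6, with overlapping groups and counts of 16 to 47 (edgeR adjusted p = 0.0406).

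Markers of cell types were used to describe which tissues the RNA came from. All 11 germline markers were detected in every auxin library. Their levels summed to between 4515 and 5566 CPM at 1 h and to between 3965 and 5173 CPM at 2 h, lower at 2 h in 6 of 6 batches. Of the 11, 6 fell and 0 rose. Summed markers of the soma moved the other way, with ranges that overlapped between the times. Called higher were 3 of 6 intestine, 3 of 5 hypodermis, 3 of 4 muscle, 2 of 2 pharynx and 1 of 5 neuron markers, and 0 were called lower. Summed intestine markers went from between 37790.5 and 49602 CPM to between 40750.0 and 54893 CPM, summed hypodermis markers from between 3165 and 3821 to between 3573 and 4232 CPM, and summed muscle markers from between 4808 and 5919.9 to between 4995 and 6493 CPM, each higher at 2 h in 6 of 6 batches. Pharynx markers summed to 482 to 636 CPM and then to 492 to 688 CPM, also higher in 6 of 6, and neuron markers to 265 to 281 CPM and then to 278 to 288 CPM, higher in 5 of 6. The 6 sperm markers summed to 273 to 375 CPM at 1 h and to 295 to 416 CPM at 2 h, again higher in 6 of 6 batches. CPM are shares of a library of whole-worm RNA. Fewer germ cells, less RNA per germ cell and more RNA from the soma therefore cannot be told apart. The part of this shift in the gene group results below was not tested.

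The second hour changed many genes, most of them slightly. Of 13757 genes tested with the batch as a block, 2135 rose (15.5%) and 2321 fell (16.9%) at an edgeR adjusted p under 0.05. The median change of the genes that rose was 0.20 on the log2 scale, and that of the genes that fell was -0.18. Changes over 1.5-fold were made by 122 genes that rose and 119 that fell, and over 2-fold by 6 and 19. In 230 of the genes that rose and 329 of those that fell, the 6 values at 2 h did not overlap the 6 values at 1 h. Without the batch block 363 genes rose and 544 fell, all of them also called with the block.

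Introns moved mostly in 1 direction. Of 15008 introns tested, 5898 rose (39.3%) and 260 fell (1.73%). The median rise among those called was 0.65 on the log2 scale, or 1.56-fold, and the median fall was -0.53. The introns that rose lay in 2376 host genes and those that fell in 187. The median of all tested introns was 0.33, or 1.26-fold, with intron counts scaled by the gene table. When the intron table was scaled by its own TMM factors, that median was -0.01, and 1457 introns rose and 1490 fell. Directions for introns below are therefore relative to gene reads, and the value under the intron scaling is given for those described singly or by host whose call it ended or turned. Relative to the counts of their own host gene, 5847 of 13642 introns rose and 156 fell. With the gene table scaling but no filter on low counts, 4932 of 79113 introns rose and 205 fell. The shares above therefore hold for introns with enough reads in these libraries. They include 4271 introns with too few reads to be tested in the first hour, which hold 1642 of the rises and 12 of the falls. Such introns passed the read filter only with the 2 h libraries included, which favours rises. The counts by list and by host below draw on the same tested introns.

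Intron reads per 1000 gene reads gave 1 value per library. The 1 h libraries lay between 25.6 and about 30 and the 2 h libraries between 31.3 and 38.1, so the groups did not overlap. The mean went from 28.1 ± 2.04 (SD, n = 6) to 34.2 ± 2.44, a ratio of 1.22 with batch ratios of 1.17 to 1.27. This was the smallest p that the exact two-sided permutation test over all divisions of the libraries can give (0.00216) and the smallest of the exact sign-flip test over 64 arrangements (0.0312). Median changes differed with intron length. Annotated introns of 45 to 50 bases had a median log2 change of 0.41, and 47.8% of them rose. Introns over 1000 bases had a median of 0.17, and 23.6% rose while 4.01% fell. Introns of the X chromosome, whose genes are largely silent in the adult germline, had a median of 0.14 with 15.3% called up, against 0.34 or 0.35 on each autosome. First introns had a median of 0.38 and internal introns of 0.32. Differences between these classes were not tested.

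**Figure D1:**
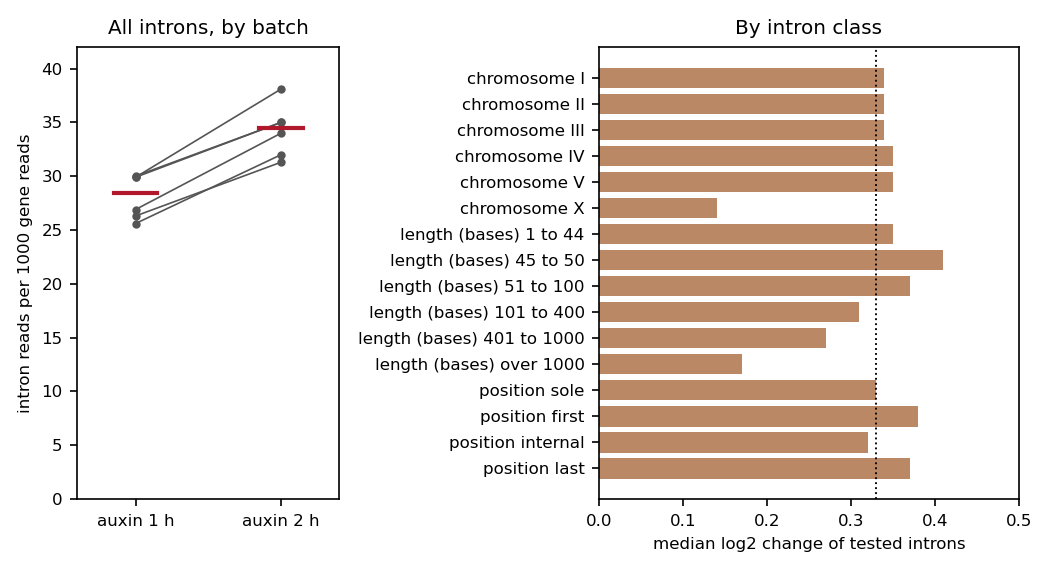
Left, intron reads per 1000 gene reads in each auxin library, with lines joining the 2 libraries of a batch and red bars at the group medians; the 6 values at 2 h, 31.3 to 38.1, lie above the 6 values at 1 h, 25.6 to about 30. Right, the median log2 change from 1 h to 2 h of tested introns by chromosome, length and position, with a dotted line at 0.33 for all introns; X-linked introns (0.14) and introns over 1000 bases (0.17) lie lowest.

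To ask which features continued, stopped or turned back, each was sorted by its call in the first hour (1 h of auxin against ethanol) and in the second. Continued means called in both hours in the same direction, and turned back means called in both in opposite directions. Stopped means called in the first hour only, with a second-hour 95% interval that stays within 0.32 on the log2 scale either way, and unresolved means a wider interval. Both comparisons contain the 1 h libraries, so an error in those libraries enters both with opposite sign. The counts are a description and carry no test.

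In the first hour 1958 of 13799 genes rose (14.2%) and 2237 fell (16.2%). Of the 1958 that rose, 375 (19.2%) continued, 1228 stopped, 216 (11%) turned back and 139 were unresolved. Of the 2218 that fell and were tested in both hours, 1038 (46.8%) continued, 848 stopped, 202 (9.11%) turned back and 130 were unresolved. A further 1548 genes rose and 1067 fell in the second hour only. Without the batch block in either hour, 17 rises and 173 falls continued, and 44 rises and 27 falls turned back. Without batch VII, 214 rises continued.

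Introns were sorted in the same way. In the first hour 8685 of 10905 introns rose (79.6%), and 80.9% were called in either direction. An intron can pass the read filter through the auxin libraries alone, so these shares hold for the filtered introns only. With no filter on low counts, 22143 of 76639 introns rose in the first hour. Of the 8674 rises tested in both hours, 4049 (46.7%) continued, 346 stopped, 158 (1.82%) turned back and 4121 were unresolved. Of 107 falls, 23 continued and 17 turned back. Another 4271 introns could be tested in the second hour alone, and 1642 of these rose and 12 fell. They passed the read filter only with the 2 h libraries included, which favours introns that rose. The filter therefore partly set this split, and no direction is read from it.

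**Figure D2:**
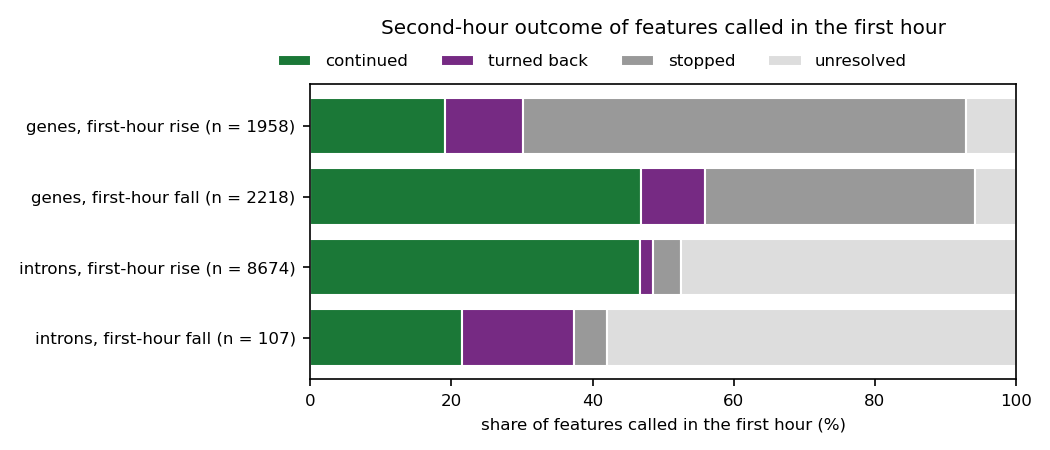
Stacked bars of the share of features called in the first hour that continued, turned back, stopped or were unresolved in the second hour, for gene rises (n = 1958), gene falls (n = 2218), intron rises (n = 8674) and intron falls (n = 107). The continued segment is 19.2% of gene rises and 46.8% of gene falls, and the unresolved segment fills most of the remaining introns.

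The genes that turned back most after a first-hour rise were cytochrome P450 genes of the cyp-35 group, which are induced by foreign compounds, mainly in the intestine. The gene cyp-35A2 (WBGene00015400, chromosome V, 7362319 to 7364182 on WBcel235) ran from 50.4 to 149 CPM (median 109) at 1 h and from 27.6 to 72.2 CPM (median 37.0) at 2 h. Every batch was lower at 2 h, though the groups overlapped, and the log2 change was -1.32 (SE 0.08, edgeR adjusted p = 8.63e-09). Its ethanol median was 31 CPM. Its relative cyp-35A3 ran from 20.7 to 45.2 CPM (median 33.6) at 1 h and from 11.3 to 17 CPM (median 12.9) at 2 h, with no overlap and an ethanol median of 9.32 CPM. Its log2 change was -1.31 (SE 0.07, edgeR adjusted p = 2.60e-09). At lower levels, cyp-35A4 fell by 1.39, cyp-35D1 by 1.38 and cyp-35A5 by 1.19 on the log2 scale, each in 6 of 6 batches. Reads of these near copies may be shared, and how the counting treated such reads is not given in the sources used here.

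Other genes with more reads made the same turn. The methionine sulfoxide reductase gene msra-1 (WBGene00018393), whose product repairs oxidized methionine, ran from 419 to 609 CPM (median 464) at 1 h and from 174 to 355 CPM (median 238) at 2 h. The groups did not overlap, the log2 change was -1.01 (SE 0.06, edgeR adjusted p = 8.63e-09), and the ethanol median was 274 CPM. The gene C30G12.2 ran from 172 to 305 CPM (median 258) at 1 h and from 101 to 170.2 CPM (median 117) at 2 h. It was lower in 6 of 6 batches without overlap, with a log2 change of -1.0 (SE 0.07, edgeR adjusted p = 2.71e-08) and an ethanol median of 138 CPM. The dopamine receptor gene dop-4, the lipase gene lipl-4 and F15E6.3 fell by 1.02, 1.07 and 1.07 on the log2 scale, from medians of 5.82, 1.27 and 1.96 CPM. Of the 216 genes that turned back after a rise, 60 had a 2 h mean at or below the ethanol mean.

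Of the 12 largest second-hour rises among genes with a mean of at least 1 CPM that rose in 6 of 6 batches, 11 followed a first-hour fall. The gene endu-2 (WBGene00019779, chromosome X, 8242301 to 8247869), which encodes an EndoU-type endoribonuclease, ran from 47.5 to 101 CPM (median 63.2) at 1 h and from 105 to 179 CPM (median 141) at 2 h. All 6 values at 2 h lay above all 6 at 1 h, and the log2 change was 1.08 (SE 0.05, edgeR adjusted p = 1.67e-09). Its ethanol median was 81.3 CPM, so the 2 h auxin median lay above the ethanol median. The gene ugt-44, of the UDP-glucuronosyltransferase family that couples sugar to small molecules, went from a median of 22 CPM to 34.4 CPM without overlap (log2 change 0.91, SE 0.08, edgeR adjusted p = 9.22e-07). The fatty acid oxidation gene ech-9 rose by 0.92, and the F-box genes fbxa-59, fbxa-105 and fbxa-84 by 0.99, 0.94 and 0.83 on the log2 scale, each in 6 of 6 batches. Less-known genes of the same kind were K08D8.4 (0.89), cpg-18 (0.88), Y45F10D.2 (0.86), K11H12.4 (0.85) and Y43C5A.7 (0.81). R102.11 rose by 1.11 from a median of 0.605 CPM, in 5 of 6 batches. Of the 202 genes that turned back after a fall, 143 had a 2 h mean at or above the ethanol mean.

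Some genes moved in the second hour only. C32H11.4 (WBGene00007867) made the largest rise among genes of that level. It went from 9.92 to 19.7 CPM (median 12.8) at 1 h to 19.7 to 51.3 CPM (median 32.8) at 2 h. The log2 change was 1.33 (SE 0.10, edgeR adjusted p = 1.44e-07), and its first-hour change of -0.39 was not called. The gene F23A7.8 followed the same course, from 36.4 to 59.8 CPM (median 45.6) to 67.7 to 113 CPM (median 72.2), with a log2 change of 0.74 (SE 0.06, edgeR adjusted p = 1.44e-07). Among genes that fell only in the second hour were skr-7 and skr-14, relatives of the SKP1 adaptor of ubiquitin ligases, by 0.90 and 0.93 on the log2 scale from medians of 9.19 and 3.85 CPM. These neighbours on chromosome V may share reads.

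Among genes that continued, chk-2 (WBGene00000499) had fallen most in the first hour. Its product is a kinase that starts the pairing of meiotic chromosomes, and it lies between 19908086 and 19916023 on chromosome V. It ran from 17.6 to 21.9 CPM with ethanol, from 2.90 to 4.83 CPM (median 4.4) at 1 h and from 1.81 to 2.64 CPM (median 2.09) at 2 h. The auxin groups did not overlap, and the second-hour log2 change was -0.95 (SE 0.12, edgeR adjusted p = 2.70e-05). The genes C16A11.5 and C34D4.10 fell by a further 0.73 and 0.62, to medians of 3.89 and 2.24 CPM from 6.81 and 3.20 CPM. B0281.5 and the homeobox gene ceh-86, from medians of 3.41 and 1.46 CPM, each fell by 0.98. Among continued rises, the P-glycoprotein gene pgp-1, an exporter of foreign compounds, ran from 53.2 to 76.4 CPM (median 63.3) at 1 h and from 80.6 to 135 CPM (median 91.2) at 2 h. Its groups did not overlap and its log2 change was 0.61 (SE 0.04, edgeR adjusted p = 4.46e-08), after an ethanol median of 28.1 CPM. The glutathione S-transferase gene gst-35 rose by 0.56, from a median of 4.47 to 6.79 CPM, and gna-1 by 0.48.

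Genes that stopped stayed near the level reached at 1 h. The glucuronosyltransferase gene ugt-63 ran from 96.4 to 165 CPM (median 103) at 1 h and from 81.2 to 173 CPM (median 122) at 2 h, with overlapping groups and a log2 change of 0.09 (SE 0.05, edgeR adjusted p = 0.197), while its ethanol median was 65.5 CPM. Its relatives ugt-16, ugt-21 and ugt-5 changed by -0.03, 0.04 and 0.06, with first-hour changes of 1.52, 0.82 and 0.74. The spartin gene spg-20 had a median of 14.1 CPM at both times, against 8.99 CPM with ethanol. Among first-hour falls that stopped, fbxa-211 had medians of 7.36 and 6.92 CPM and taf-11.3, a TFIID subunit gene, of 2.86 and 3.02 CPM.

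**Figure D3:**
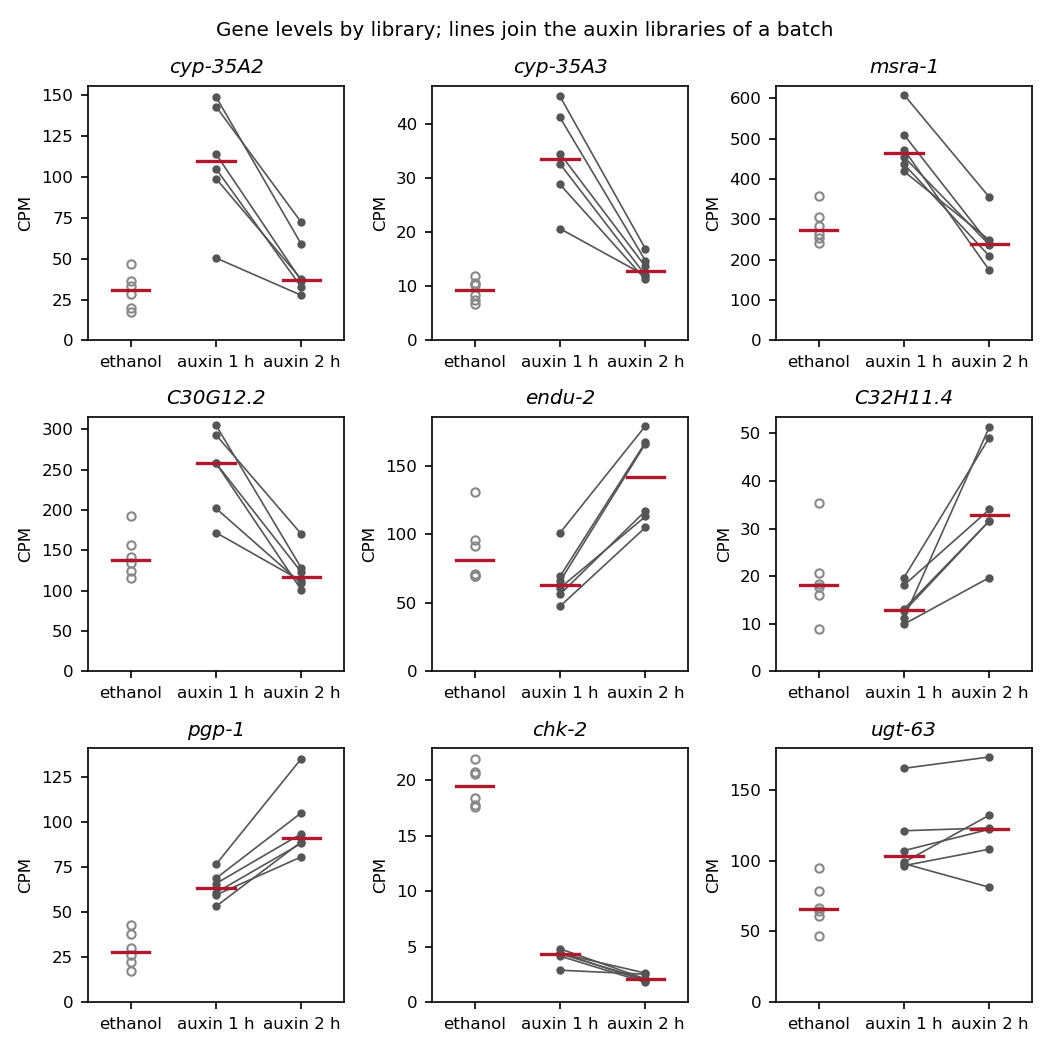
Levels of 9 genes in CPM in each library: open circles, ethanol; filled circles joined by lines, the 1 h and 2 h auxin libraries of each batch; red bars, group medians. The genes cyp-35A2, cyp-35A3, msra-1 and C30G12.2 fell in all 6 batches after a first-hour rise, endu-2 and C32H11.4 rose in all 6, pgp-1 and chk-2 went on, and ugt-63 held its level.

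The gene lists moved by small amounts per gene, alongside the marker shift given above, and their shares are to be read against the 15.5% of all genes that rose and the 16.9% that fell. Of the germ granule genes, whose proteins form the perinuclear condensates of germ cells, 18 of 20 fell and 2 rose, with a median of -0.14 on the log2 scale, against 0.02 for all genes. The scaffold gene pgl-1 went from a median of 532 to 487 CPM (-0.16, lower in 6 of 6 batches without overlap), the helicase gene glh-2 from 115 to 90.6 CPM (-0.36) and meg-4 from 21.5 to 14.9 CPM (-0.46). The 2 that rose, ego-1 and mut-16, both of small RNA pathways, changed by 0.09. Of the oocyte and eggshell genes, 20 of 27 fell and 1 rose, with a median of -0.19. The egg surface gene egg-2 went from a median of 140.1 to 109 CPM (-0.36), and the oocyte RNA-binding protein genes oma-1, oma-2 and puf-5 by -0.30, -0.31 and -0.30. Without the batch block, 6 germ granule genes and 5 oocyte genes fell.

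No gene of the meiotic lists rose. Of 27 pairing and synapsis genes, 9 fell. They included the cohesin gene coh-3, which went from a median of 19.3 to 15.9 CPM without overlap (-0.32, edgeR adjusted p = 2.09e-04), and lab-1 (-0.24). Of 24 break and crossover genes, 12 fell, among them the crossover site gene cosa-1, from 24.1 to 20.4 CPM without overlap (-0.29, edgeR adjusted p = 7.82e-05), zhp-4 (-0.36) and spo-11, whose product makes the breaks (-0.17). Without the batch block, 3 and 1 fell in these lists. Of 22 replication genes 11 fell and 0 rose, led by psf-1 (-0.37) and psf-3 (-0.33) of the GINS helicase complex. Of 20 cell cycle genes 10 fell, with cdk-1 at -0.23 and cyb-3 at -0.22, while 2 rose, fzr-1 by 0.26 and bub-1 by 0.09. Without the block, 2 replication genes fell, and of the cell cycle genes 2 fell and 1 rose. Of 13 stem cell regulators 8 were not called, 2 rose and 3 fell, with a median of -0.02 and a share of rises near that of all genes. The Notch targets of the niche, sygl-1 and lst-1, rose by 0.13 and 0.12. The genes gld-3, mex-3 and gld-1 fell by 0.19, 0.10 and 0.09. None of the 13 was called without the block.

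Genes of RNA and protein turnover followed no single course. Proteasome subunit genes fell, 25 of 33 with 0 that rose, within a narrow range led by pbs-4 at -0.19, and 5 of 33 fell without the batch block. Of 81 ribosomal protein genes, 68 were not called, 12 fell and 1 rose, with a share of falls near that of all genes. None was called without the block. Of 50 core splicing genes, 9 rose and 9 fell, with a median of -0.00. Both shares were near those of all genes (15.5% and 16.9%). Those that rose included the large U5 proteins snrp-200, from a median of 380.1 to 459.5 CPM without overlap (0.30, edgeR adjusted p = 1.98e-06), and prp-8 (0.17), and mog-5 (0.15), while lsm-1 and skp-1 fell by 0.16. Of 10 nonsense-mediated decay genes 5 fell, with the kinase gene smg-1 at -0.29, and 1 rose, smg-9 at 0.37. Without the block 2 splicing genes rose and 1 fell, and of the decay genes 1 rose and 1 fell.

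Among lists of somatic, sperm and secreted proteins, collagen and muscle genes had the most rises for their size. Of 124 collagen genes, which build the cuticle, 80 rose and 2 fell, with a median of 0.24. The largest member changes were at low levels, such as col-110, from a median of 1.27 to 2.32 CPM (0.73). Without the batch block 1 collagen gene rose. Of 27 muscle genes 19 rose and 0 fell, with the myosin gene unc-54 going from a median of 3373 to 3584 CPM (0.09) and mlc-1 from 1040.1 to 1153 CPM (0.15), and 0 rose without the block. Of 89 sperm genes 34 rose and 1 fell, with a median of 0.11, and 0 rose without the block. Of 110 lectin and lysozyme genes of the gut and its defence 39 rose and 6 fell, led among those over 5 CPM by clec-169, from 6.55 to 9.88 CPM (0.62). Of 39 glutathione transferase genes 13 rose and 2 fell, and gst-4, a gene of the oxidative stress response, went from a median of 43.1 to 54.8 CPM (0.42). Of 51 P450 genes 27 were not called, and the median was -0.02. In that list 11 rose, led by cyp-13A5 (0.67), and 13 fell, led by the cyp-35 genes above. Of 123 neuronal genes 17 rose and 1 fell, a share of rises near that of all genes. Without the block the rises numbered 8 in the lectin list, 7 in the glutathione transferase list, 3 in the P450 list and 3 in the neuronal list, and 7 P450 genes fell.

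**Figure D4:**
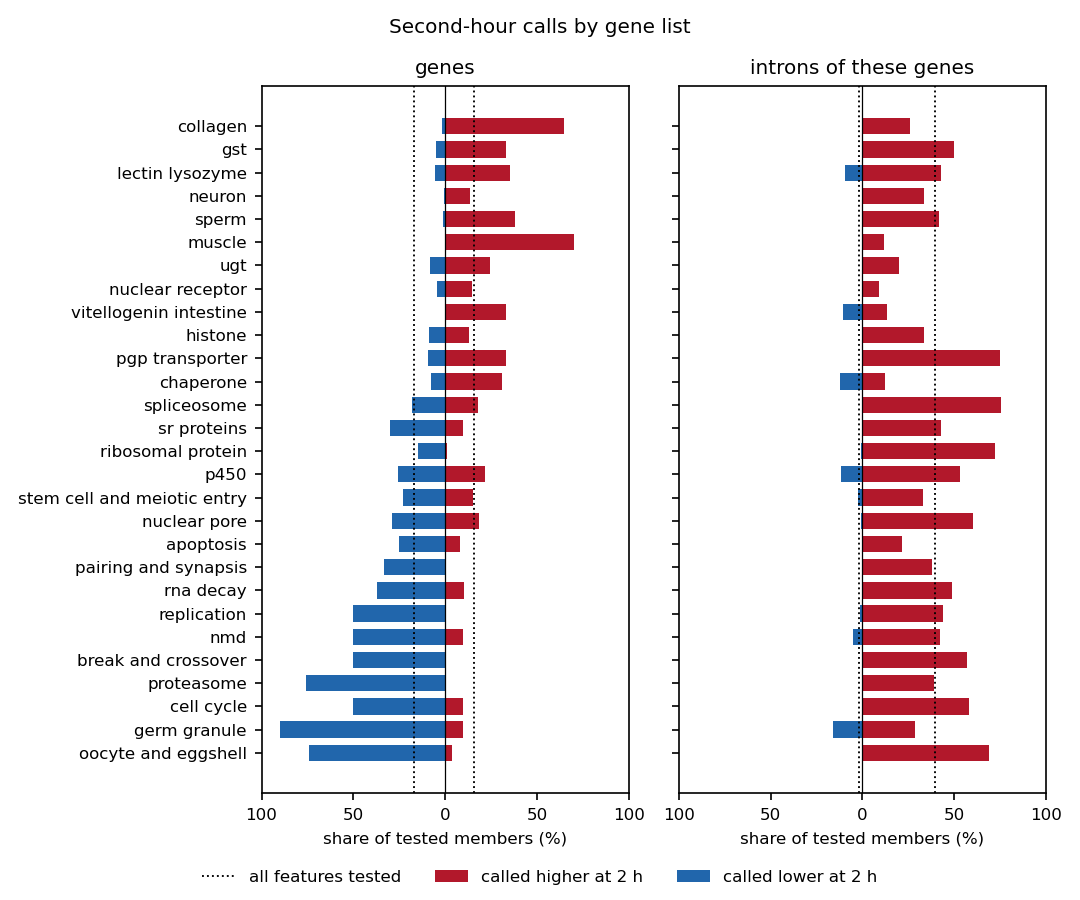
Share of tested genes (left) and of tested introns in these genes (right) called higher (red, to the right) or lower (blue, to the left) at 2 h than at 1 h, for 28 gene lists ordered by the median change of their genes; dotted lines mark the shares among all genes (15.5% and 16.9%) and all introns (39.3% and 1.73%). Oocyte and germ granule genes fall at the bottom of the left panel, while introns of oocyte genes rise in the right panel.

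Genes that held tested introns fell more often than the rest. Of 4815 genes with at least 1 tested intron, 28.9% fell and 13.2% rose. Of 8942 genes with none, 10.4% fell and 16.8% rose. The filter keeps introns with more reads, and neither the part of read depth in this difference nor the difference itself was tested.

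Of 2322 genes with an intron that rose, 727 fell in their gene counts (31.3%) and 273 rose (11.8%). These shares lay near the 28.9% and 13.2% of all genes with a tested intron. Introns of oocyte and eggshell genes rose in 80 of 116 cases with 0 falls (median 0.44), and 16 rose and 5 fell under intron scaling. In puf-5, whose mRNA fell, all 4 introns rose by 0.75 to 1.00 on the log2 scale. Its intron 1 (43 bases, chromosome II, 8575683 to 8575725) ran from 0.179 to 0.370 CPM with ethanol, from 4.83 to 8.61 CPM (median 7.18) at 1 h and from 10.4 to 17.1 CPM (median 15.3) at 2 h, with no overlap (edgeR adjusted p = 6.08e-20). The only intron of pos-1, a maternal regulator of early embryo fate, ran from 7.29 to 12.3 CPM (median 9.57) at 1 h and from 17.8 to 24.6 CPM (median 23) at 2 h. Its log2 change was 1.18 (SE 0.08, edgeR adjusted p = 2.25e-27), while pos-1 itself fell by 0.13. Both hosts were picked after their values were seen. Intron 4 of cpg-2, an eggshell proteoglycan gene, went from a median of 44 to 66.4 CPM without overlap (0.55). This was the largest gain in CPM among called introns of 1 host gene that rose in 6 of 6 batches, with at least 20 mean counts.

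Many introns of splicing and nuclear transport genes rose. In core splicing genes 108 of 143 introns rose and 0 fell (median 0.68), and 57 rose and 7 fell under intron scaling. In nuclear pore and transport genes 111 of 184 rose and 1 fell (median 0.49), and 38 rose and 8 fell under intron scaling. Intron 6 of the nucleoporin gene npp-3 (435 bases, chromosome II, 11871412 to 11871846) had the largest rise among called introns of 1 host gene. These were limited to a mean of at least 20 counts and a rise in 6 of 6 batches. The npp-3 intron went from 0.743 to 1.82 CPM (median 1.57) at 1 h to 3.14 to 5.58 CPM (median 4.70) at 2 h. The log2 change was 1.78 (SE 0.13, edgeR adjusted p = 1.18e-23), and all 13 tested introns of npp-3 rose, by 0.51 to 1.78, of which 11 rose under intron scaling. In snpc-1.1, a subunit gene of the complex that transcribes small nuclear RNA genes, all 8 introns rose by 1.08 to 1.73, and its summed intron level went from 9.93 ± 2.11 to 24.9 ± 2.38 CPM (SD, n = 6). In ama-1, the gene of the largest RNA polymerase II subunit, 11 of 12 introns rose, and the summed level went from 8.53 ± 1.80 to 19.8 ± 2.98 CPM, against 0.514 CPM with ethanol. The ama-1 mRNA rose by 0.19. Intron 4 of ama-1 (484 bases) had 0 reads in all 6 ethanol libraries and medians of 0.590 CPM at 1 h and 2.23 CPM at 2 h.

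Other large rises were spread over single introns and whole genes. Intron 8 of cdk-11.1, a kinase gene tied to transcription, went from a median of 0.481 to 1.3 CPM (1.54). It had too few reads to be tested in the first hour. Intron 3 of B0464.6 went from 0.723 to 2.16 CPM (1.49). Intron 3 of smg-5 went from 0.688 to 1.85 CPM (1.42), and intron 3 of the deubiquitinase gene ubh-4 from 1.06 to 2.66 CPM (1.37). Of 861 hosts with at least 5 tested introns, 124 had every tested intron called up, 145 had none called and 16 had introns in both directions. In mre-11, a gene of break repair whose mRNA changed by 0.00, all 7 tested introns rose, by 0.69 to 1.22, of which 4 rose under intron scaling.

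Ribosomal protein introns rose in 84 of 116 cases with 1 fall (median 0.33, or -0.02 under intron scaling). The sole intron of rpl-41.2 ran from 15.7 to 23.9 CPM (median 18.5) at 1 h and from 27.8 to 35.2 CPM (median 32.6) at 2 h, without overlap (0.74, edgeR adjusted p = 7.78e-17), from an ethanol median of 1.11 CPM. Intron 2 of rps-17 started late: it had medians of 18.8 CPM with ethanol, 19.5 CPM at 1 h and 31.4 CPM at 2 h (0.71, edgeR adjusted p = 3.47e-16). Intron 2 of rpl-2 rose by 0.42, from a median of 48.0 to 62.2 CPM, or by 0.07 under intron scaling, which did not pass the test. Intron 5 of nhr-114, a nuclear receptor gene, went from 93.5 to 109 CPM (0.28). Under intron scaling the nhr-114 change was -0.07 and did not pass the test. Introns of the 27 muscle genes stayed low in calls, with 6 of 50 up, 0 down and a median of 0.16 that became -0.19 under intron scaling.

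Several germ granule and Argonaute genes held introns that turned back. In the germ granule list 34 of 119 introns rose and 19 fell, with a median of 0.11 that became -0.24 under intron scaling. Relative to host counts, 47 rose and 11 fell, with a median of 0.22. The falls were in pgl-1 (8), csr-1 (5), deps-1 (2), hrde-1 (2), prg-1 (1) and znfx-1 (1). The gene pgl-1 was the only host of at least 5 tested introns in which every one fell, by 0.25 to 0.65, and its summed intron level went from 36.9 ± 2.33 to 27.1 ± 2.68 CPM (SD, n = 6), against 6.91 CPM with ethanol. Its intron 4 (48 bases, chromosome IV, 6976367 to 6976414) ran from 4.53 to 5.55 CPM (median 5.05) at 1 h and from 2.73 to 3.87 CPM (median 3.13) at 2 h, with no overlap (-0.65, edgeR adjusted p = 2.41e-07). Relative to the counts of pgl-1 itself, 4 of its 8 introns fell.

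The same course was seen in 2 Argonaute genes, whose proteins carry small RNAs. In ppw-2, introns 2 to 7 fell and the 4 others were not called, and the summed level went from 24 ± 1.76 to 18.3 ± 1.63 CPM, against 1.80 CPM with ethanol. The ppw-2 mRNA had dropped in the first hour by 0.55 on the log2 scale and then stopped, with medians of 102 CPM at 1 h and 108 CPM at 2 h. In csr-1, 5 of 10 tested introns fell, none rose, and the summed level went from 55.8 ± 4.45 to 46.6 ± 2.66 CPM. All 6 falls in ppw-2 and all 5 in csr-1 also passed relative to the host counts. These hosts were picked after their values were seen.

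In some genes introns were called in both directions, and these calls moved with the scaling. In deps-1, another germ granule gene, introns 3, 6 and 11 rose by 0.53, 0.71 and 0.63, introns 2 and 8 fell by 0.31 and 0.23, and 5 were not called. Relative to the deps-1 counts 4 rose and 0 fell, and under intron scaling 1 rose and 6 fell. Intron 6 of deps-1 ran from 2.02 to 3.22 CPM (median 2.64) at 1 h and from 3.86 to 4.92 CPM (median 4.34) at 2 h, and intron 8 from 6.23 to 7.93 CPM (median 6.66) to 5.03 to 6.22 CPM (median 5.95), each without overlap. In wago-4, an Argonaute gene whose mRNA fell from a median of 134 to 92.1 CPM, intron 4 rose by 0.43, introns 7 and 9 fell by 0.27 and 0.46, and 7 of 10 were not called. Relative to the wago-4 counts 9 of the 10 introns were higher at 2 h, while under intron scaling 0 rose and 6 fell. In chk-2 likewise, 8 of 9 tested introns were not called in their level, while 8 of 9 were higher relative to the chk-2 counts, and under intron scaling 1 fell and 0 rose. Over all hosts, 30 had introns in both directions.

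**Figure D5:**
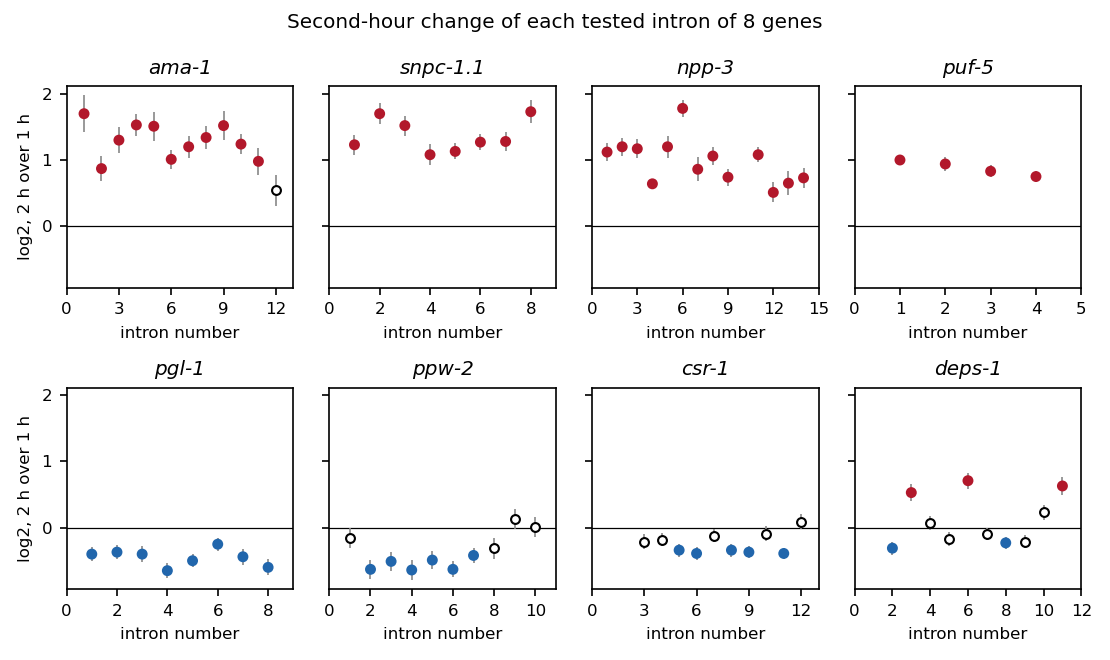
Log2 change from 1 h to 2 h of each tested intron, by intron number from the 5′ end, in 8 genes chosen after their values were seen; bars are standard errors, filled points passed the test (red up, blue down) and open points did not. Introns of ama-1, snpc-1.1, npp-3 and puf-5 lie above 0, all 8 introns of pgl-1 lie below it, and those of deps-1 lie on both sides with introns scaled by the gene table.

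Introns also fell outside the germ granule genes. Intron 2 of eipr-1 (4401 bases, chromosome I, 13593761 to 13598161) ran from 0.778 to 1.76 CPM (median 1.18) at 1 h and from 0.353 to 0.571 CPM (median 0.465) at 2 h, without overlap (-1.38, SE 0.21, edgeR adjusted p = 5.41e-08). In gcn-1, a translation control gene, 3 of 26 intervals had enough reads, introns 19, 24 and 26, and all 3 fell, by 1.17, 1.16 and 1.29. Intron 9 of sec-23, of the vesicle coat COPII, went from a median of 1.55 to 0.689 CPM (-1.02) and intron 19 of rin-1 from 1.35 to 0.689 CPM (-0.86). Introns 1 and 8 of ifet-1, a germline repressor of translation, fell by 0.76 and 0.81. Of the chaperone genes, both tested introns of hsp-1 fell, by 0.34 and 0.69, though in 5 of 6 batches, and intron 4 of hsp-90 went from a median of 14.1 to 9.60 CPM (-0.50). Intron 1 of cyp-35A2 fell by 1.09 with its host, and relative to the host counts its change was 0.18 and did not pass the test. Intron 4 of pab-1, the poly-A binding protein gene, went from 96.1 to 84.9 CPM (-0.19). Intron 6 of hrg-7 and intron 14 of smg-1 fell by 0.83 and 0.75, and intron 2 of WBGene00021673 by 1.01.

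Some intervals of the intron table match no annotated intron. Of 290 that were tested, 58 rose (20.0%) and 13 fell (4.48%), against 39.3% and 1.73% of all introns tested. Among called intervals of 1 host gene, with at least 20 mean counts and falls in 6 of 6 batches, 1 assigned to plg-1 lost the most CPM. This interval had 8868 bases (chromosome III, 8852593 to 8861460). It ran from 355 to 424 CPM with ethanol, from 317 to 354 CPM (median 332) at 1 h and from 195 to 226 CPM (median 212) at 2 h, without overlap (-0.67, SE 0.05, edgeR adjusted p = 1.35e-21), and its first-hour fall of 0.22 was called too. In the reference strain plg-1 is known to be interrupted by the retrotransposon Cer1, and whether this interval is that element was not tested. Summed over the 1967 unannotated intervals, reads per 1000 gene reads went from 1.1 ± 0.0305 to 1.04 ± 0.0319 (SD, n = 6), lower in 6 of 6 batches (exact permutation p = 0.0108). Without the plg-1 interval they went from 0.759 ± 0.0210 to 0.828 ± 0.0208, higher in 6 of 6 batches (exact permutation p = 0.00216), so this 1 interval set the direction of the sum. A 2095-base interval of irld-23 on the X chromosome rose, from 21.8 to 30.3 CPM (median 23.1) at 1 h to 35.6 to 49.4 CPM (median 42.1) at 2 h (0.76, edgeR adjusted p = 2.59e-18). An interval of 109 bases next to endu-2 rose by 1.31, with its host.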

How the data were processed

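RNA-seq counts per protein-coding gene and per intron interval were taken as deposited by the authors, for 18 libraries, of which 12 carry the comparison. Per the submitters' processing notes, Trimmomatic, cutadapt, STAR, SAMtools, Picard, featureCounts, limma and edgeR were used on the series, with no roles or settings given, and per the labels' protocols the libraries were stranded and poly-A selected. The build, the strand setting of the counting and the treatment of reads that fit several places are not given in the sources used here. Of 106818 intron intervals, 98.2% equal an annotated intron of WBcel235 (Ensembl release 115), whose coordinates are printed. Of 20191 gene IDs, 19879 matched a symbol. No column lacked a sample (0).

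Second-hour changes were tested with edgeR 4.0.16 in R 4.3.3 (quasi-likelihood test, TMM factors, filterByExpr with a minimum count of 10, batch as a block, Benjamini-Hochberg adjustment over all features, threshold 0.05). Intron counts were scaled by the gene table's library sizes and TMM factors. The first hour was fitted the same way on the 1 h and ethanol libraries. CPM values use TMM factors over all 18 libraries. A count of 3, taken as the floor, is 0.0985 to 0.164 CPM, and such floors cover counting error only. Libraries of a group differed beyond counting noise in all 30 pairs (chi-square per degree of freedom 4.66 to 26.7). The labels name the batch. Deviations from the group means correlated by 0.15 to 0.68 over genes within batches and by -0.54 to 0.4 between batches, and 4 of 6 batches correlated best with themselves. Over introns the values were 0.03 to 0.23 and -0.11 to 0.057. What a batch is, and whether its libraries came from separate cultures, is not stated. The block removes level differences between batches, so p-values rest on how the change between times varied among these batches. Alternatives were the fit without the block, DESeq2 1.42.0, other scalings, no filter, a test against a minimum fold, all 18 libraries in the fit, and each batch left out. The scripts were tested on simulated data.

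Genes named are the 12 largest rises and falls among called genes with a mean of at least 1 CPM that moved alike in 6 of 6 batches, the 6 largest turns each way, and examples from 28 gene lists. Further genes, named for continuing, stopping or starting, are those of the largest first-hour or second-hour change in their class, and were chosen after their values were seen. Introns named are the 10 largest rises and falls, the 6 largest gains in CPM and the 6 largest turns. All had 1 host gene and a mean of at least 20 counts. The rises, falls, gains and losses were ranked among called introns that moved alike in 6 of 6 batches. Introns shown host by host, and the largest losses of reads, were chosen after their values were seen. A gene that the rule names is not reported here. The comparison, the lists and the rules were chosen with earlier results of these data known.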

Additional observations from a re-analysis of the deposited data

Results flagged for a closer look

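Values of the named genes and introns in 196 groups of 6 libraries were examined for 1 library standing far from the others of its group, and 13 groups held one. Chance alone flags about 1 in 20 groups. The libraries were from batch V in 4 cases, batch I in 3, VII and X in 2 each, and II and VIII in 1 each. At 2 h the highest library stood apart for fbxa-105 (4.66 CPM in batch VII, group median 2.28), ech-9 (15.8 CPM in batch II, median 7.61), ugt-44 (70.5 CPM in batch VII, median 34.4) and F15E6.3 (2.03 CPM in batch X, median 0.900). The same held at 2 h for C16A11.5 (4.55 CPM in batch I, median 3.89), C29F7.2 (31.3 CPM in batch V, median 16.6) and F23A7.8 (113 CPM in batch I, median 72.2). Among introns, it held for intron 3 of B0464.6 (2.59 CPM in batch I, median 2.16) and intron 1 of cyp-35A2 (1.70 CPM in batch V, median 0.627). At 1 h the highest library stood apart for ugt-8 (24.8 CPM in batch V), ugt-63 (165 CPM in batch V, median 103) and oac-31 (1.23 CPM in batch X, median 0.710). The lowest 1 h library of chk-2 (2.90 CPM in batch VIII, median 4.4) also stood apart.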

How the results depend on the processing

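The rise of intron reads per 1000 gene reads was 1.21 to 1.24 times under each alternative that was run. Leaving out the replicate block, so that batches were no longer paired, left 363 genes higher and 544 lower, 17 and 173 genes that continued after a rise and a fall, 44 and 27 that turned back, and 14 introns that continued after a fall. DESeq2 called 1202 genes higher and 1432 lower, with 190 and 547 that continued and 122 and 86 that turned back. It called 3176 introns higher and 87 lower, with 2453 and 7 that continued and 57 and 1 that turned back. Against a minimum fold, 56 genes and 2890 introns were higher and 76 and 63 lower. Library sizes alone left 199 genes that continued after a rise, and no filter on low counts left 13 introns that continued after a fall. The introns' own TMM factors gave 1457 higher and 1490 lower and turned the change of the nhr-114 intron to -0.07. Relative to host counts 156 introns were lower, and the cyp-35A2 intron changed by 0.18. With each batch left out in turn, 214 to 269 genes continued after a rise (214 without VII), 13 to 18 introns continued after a fall, and 11 to 18 turned back after a fall. The causes of these differences were not tested. Limits of the design remain: 1 strain, 6 batches, no ethanol group at 1 h, whole worms, and low counts in most introns.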
